A study of Homo sapiens with 6 samples.

Results

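The genes described here are 42 genes of mitosis and of the passage from G2 into mitosis, chosen by symbol from a table of 20442 genes. The list goes by function, and no value of the table enters its rule, but it was chosen with earlier results of these data known. All 42 were in the table and all 42 passed the filter on low values (a mean of at least 1 FPKM), which 12461 genes of the table passed. FPKM is the number of fragments scaled by the length of the transcript and by the total of mapped fragments. The cells were HK-2, a human line grown from proximal tubule epithelium and immortalized with the E6 and E7 genes of a papillomavirus. By the methods of the study, both groups were HK-2 cells given a lentivirus. There were 3 libraries labelled control (a control virus) and 3 labelled HNRNPF overexpression (a virus carrying HNRNPF, the gene of the splicing factor hnRNP F). The protocol names 72 h of culture with 30 mM glucose or with 30 mM mannitol as the osmotic control, and the medium of each single library is not given in its labels. The comparison asks how RNA levels of the mitotic genes differed between the 2 labels.

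Cells enter mitosis when cyclin-dependent kinase 1, bound to cyclins A and B, escapes inhibition. WEE1 and PKMYT1 add the inhibitory phosphates and CDC25 phosphatases remove them, with Polo-like kinase 1 and Aurora A acting upstream. The chromosomal passenger complex and the spindle checkpoint then oversee the attachment of chromosomes to microtubules. The anaphase-promoting complex, with its activator CDC20, ends mitosis by marking securin and the cyclins for destruction. The RNAs of these genes rise together late in the cell cycle. The DREAM complex, built on the MuvB core, represses their promoters in quiescence, and MuvB with B-MYB and FOXM1 activates them in proliferating cells, largely through a short promoter element called the CHR. In proximal tubule epithelium, which divides little at rest, such genes are known as marks of dividing cells.

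Promoter sequences are shown for the rising genes CCNF, PLK1, CDCA8 and CDC25B, for HMMR, which fell, and for CCNB2, which did not pass the test, so that the letters can be set beside the values below. They come from RefSeq (GRCh38.p14), run 5′ to 3′ on the strand of the gene, and cover 110 bases before the start of transcription and 40 bases from it. Capitals mark the CHR letters TTTGAA or TTTAAA or TTCGAA and the letters of the CCAAT box, each on either strand, where TTCAAA and ATTGG are the reverse forms.
CCNF, chr16:2429337-2429486, plus strand: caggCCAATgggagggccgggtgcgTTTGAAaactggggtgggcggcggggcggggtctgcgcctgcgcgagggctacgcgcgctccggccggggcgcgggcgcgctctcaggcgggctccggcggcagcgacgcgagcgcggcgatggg
PLK1, chr16:23678779-23678928, plus strand: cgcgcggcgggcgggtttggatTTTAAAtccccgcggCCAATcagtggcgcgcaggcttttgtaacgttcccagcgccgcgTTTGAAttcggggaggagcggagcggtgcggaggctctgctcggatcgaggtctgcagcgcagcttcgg
CDCA8, chr1:37692406-37692555, plus strand: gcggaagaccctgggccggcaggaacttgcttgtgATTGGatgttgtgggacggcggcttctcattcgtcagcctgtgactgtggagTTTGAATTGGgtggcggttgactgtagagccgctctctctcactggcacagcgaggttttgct
CDC25B, chr20:3786841-3786990, plus strand: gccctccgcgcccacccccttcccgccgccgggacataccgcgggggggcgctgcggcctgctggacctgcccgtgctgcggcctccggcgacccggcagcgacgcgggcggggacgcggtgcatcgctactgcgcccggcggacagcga
HMMR, chr5:163460522-163460671, plus strand: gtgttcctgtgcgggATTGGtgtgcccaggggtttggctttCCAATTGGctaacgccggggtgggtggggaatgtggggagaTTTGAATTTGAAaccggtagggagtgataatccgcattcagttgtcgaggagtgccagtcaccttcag
CCNB2, chr15:59105036-59105185, plus strand: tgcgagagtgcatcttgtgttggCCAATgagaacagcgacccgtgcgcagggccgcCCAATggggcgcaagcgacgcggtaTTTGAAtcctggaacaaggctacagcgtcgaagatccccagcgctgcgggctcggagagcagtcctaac
CCNF holds a CCAAT box followed by TTTGAA. PLK1 holds TTTAAA, next a CCAAT box and TTTGAA in that order. In CDCA8 the CHR letters run into a reversed CCAAT box and share a letter with it. The CDC25B window holds none of these letters. HMMR holds CCAAT boxes on both strands and TTTGAA repeated head to tail, and CCNB2 holds CCAAT boxes ahead of a single TTTGAA. The genes shown were picked with their results known, so no relation between these letters and the direction of the difference is read from them.

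RefSeq gave a promoter for 35 of the 42 genes and for 10236 of the genes tested, in windows of 250 bases before to 50 bases after the start. AURKA, BIRC5, BUB3, FOXM1, TPX2, TTK and UBE2C had no entry. CHR letters were found in 29 of 35 mitotic promoters (82.9%), against 16.6% of all promoters of tested genes. TTTGAA alone was found in 22 (62.9% against 9.26%), and CCAAT in 25 (71.4% against 36.7%). Both CHR and CCAAT letters stood in 22 promoters (62.9% against 6.81%). E2F letters, searched as TTTCCCGC, TTTGGCGC or TTTCGCGC on both strands, stood in only 2 of the 35 (5.71% against 4.79%), those of CDK1 and CENPA. TTTAAA also occurs in TATA-like letters, and a match is not a shown binding site. CHR letters were present in 10 of the 14 genes that rose, in 2 of the 3 that fell and in 17 of the 18 that did not pass. The median log2 difference was 0.13 for the mitotic genes with CHR letters and 0.27 for those without them. The genes without them were only CCNA2, CDC25B, CDC25C, AURKB, NEK2 and TACC3. Other forms of the CHR and other start sites were not searched. The mitotic promoters thus shared these letters far more often than promoters at large, and the genes that rose did not hold them more often than the others.

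**Figure D1:**
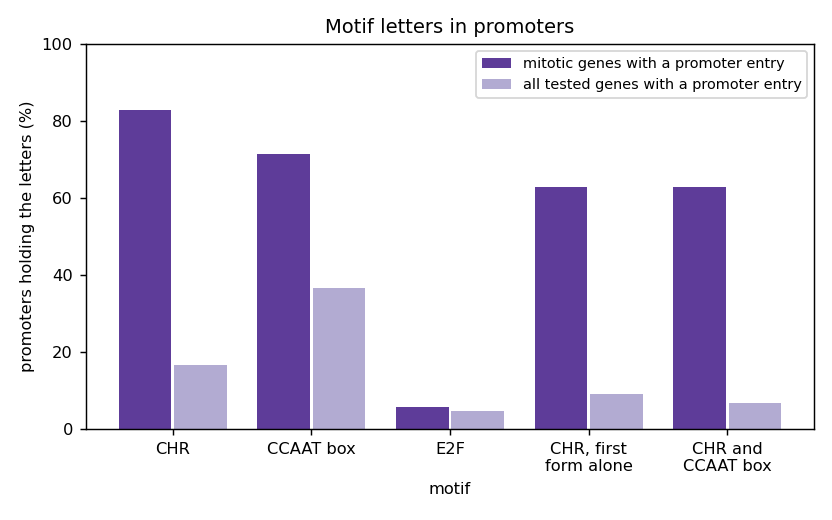
Share of promoters (%, from 0) that hold each set of letters within 250 bases before to 50 bases after the start, for the 35 mitotic genes with a promoter entry (dark bars) and all 10236 tested genes with one (light bars). CHR letters stand in 82.9% of the mitotic promoters against 16.6% of all, while E2F letters are about as rare in both.

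The labels were checked first at the targeted gene. HNRNPF stood at 555, 563 and 589 FPKM in the libraries labelled control and at 323, 350 and 321 FPKM in those labelled overexpression. It was therefore lower by 0.78 on the log2 scale under the overexpression label (SE 0.061, limma adjusted p = 1.07e-04), which goes against that label. A gene-level value does not separate a delivered copy from the transcript of the cell. All directions below follow the labels. Whether the labels of the 2 groups are exchanged was not tested, and an exchange would reverse every direction given. Pearson's r across genes was 0.989 to 0.994 within a label and 0.978 to 0.985 between labels. Of the epithelial markers, KRT7, KRT8, KRT18, KRT19 and EPCAM were expressed, KRT7 and KRT18 fell 1.28- and 1.15-fold (limma adjusted p = 0.0117 and 0.0233), and CDH1 was under 0.1 FPKM in all libraries. Renal PAX8 was expressed. Of the 9 markers of the mature proximal tubule only GGT1, which rose 1.39-fold (limma adjusted p = 0.00576), and SLC5A2 passed the filter, while ANPEP, LRP2, CUBN and HNF4A were under 0.1 FPKM throughout. Summed fibroblast markers ranged from 14.6 to 16.2 FPKM under the control label and from 17.4 to 17.5 under the overexpression label, with COL1A1 1.56-fold higher (limma adjusted p = 0.0116) and COL1A2 and COL3A1 under 0.1 FPKM in all libraries. Most of this sum was LUM, which did not pass and had overlapping groups. Its mean was 10.4 FPKM under the control label and 9.79 under the overexpression label. Summed leukocyte markers, nearly all CD68, ranged from 163 to 177 and from 190 to 212, with PTPRC under 0.1 FPKM, and endothelial CDH5 and VWF were under 0.1 FPKM. The part of these marker differences in the results was not tested.

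Of the 42 mitotic genes, 16 (38.1%) were higher and 3 (7.14%) were lower in the libraries labelled overexpression at a limma adjusted p under 0.05, adjusted over all genes tested. Among all tested genes 11.3% of genes were higher and 13.1% were lower. The genes that rose were CCNA2, CCNF, CDC25B, PLK1, FOXM1, CENPE, AURKB, BIRC5, INCENP, CDCA8, KIF20A, KIF2C, TACC3, TOP2A, MKI67 and CDC20, by 1.13- to 1.49-fold. CDC25C, NDC80 and HMMR fell, by 1.2- to 1.32-fold. None changed 2-fold. The median log2 difference was 0.15 over the 42 genes and -0.013 over all genes tested, and 33 of the 42 differences were above 0. All values of the 3 libraries labelled overexpression lay above those labelled control for 20 genes (47.6%, against 19.6% of all tested genes), and below them for 5 (11.9%, against 22.5%). The 20 include AURKA, NEK2, CENPF and NCAPH, and the 5 include CENPA and KIF23, which were separated in this way and did not pass the test. In these bulk samples, more cells in G2 and mitosis cannot be told apart from more of these RNAs in each cell.

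The counts depend on single libraries. Without 1 library in turn, 7 to 15 of the 42 genes were higher and 1 to 3 were lower, and calls over all genes changed in number too. The number of mitotic genes higher was 7 (16.7%) without control library 2, against 4.30% of all genes tested in that fit. It was 10 (23.8%, against 8.03%) without overexpression library 1 and 8 (19.0%, against 5.52%) without overexpression library 3. Without control library 3 it was 15 (35.7%, against 16.7%). The number lower was 1 without control library 1, control library 2, overexpression library 1 or overexpression library 2, where 5.71% to 9.59% of all genes were lower. CCNA2, CCNF, CDC25B, PLK1, CDCA8, KIF20A and TACC3 stayed higher in all 6 of these fits and HMMR stayed lower in all 6. MKI67 held in 5 of the 6. CDC25C, CENPE, KIF2C and CDC20 held in 1, and the remaining called genes in 2. All 19 kept their direction in every one of the 6 fits.

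**Figure D2:**
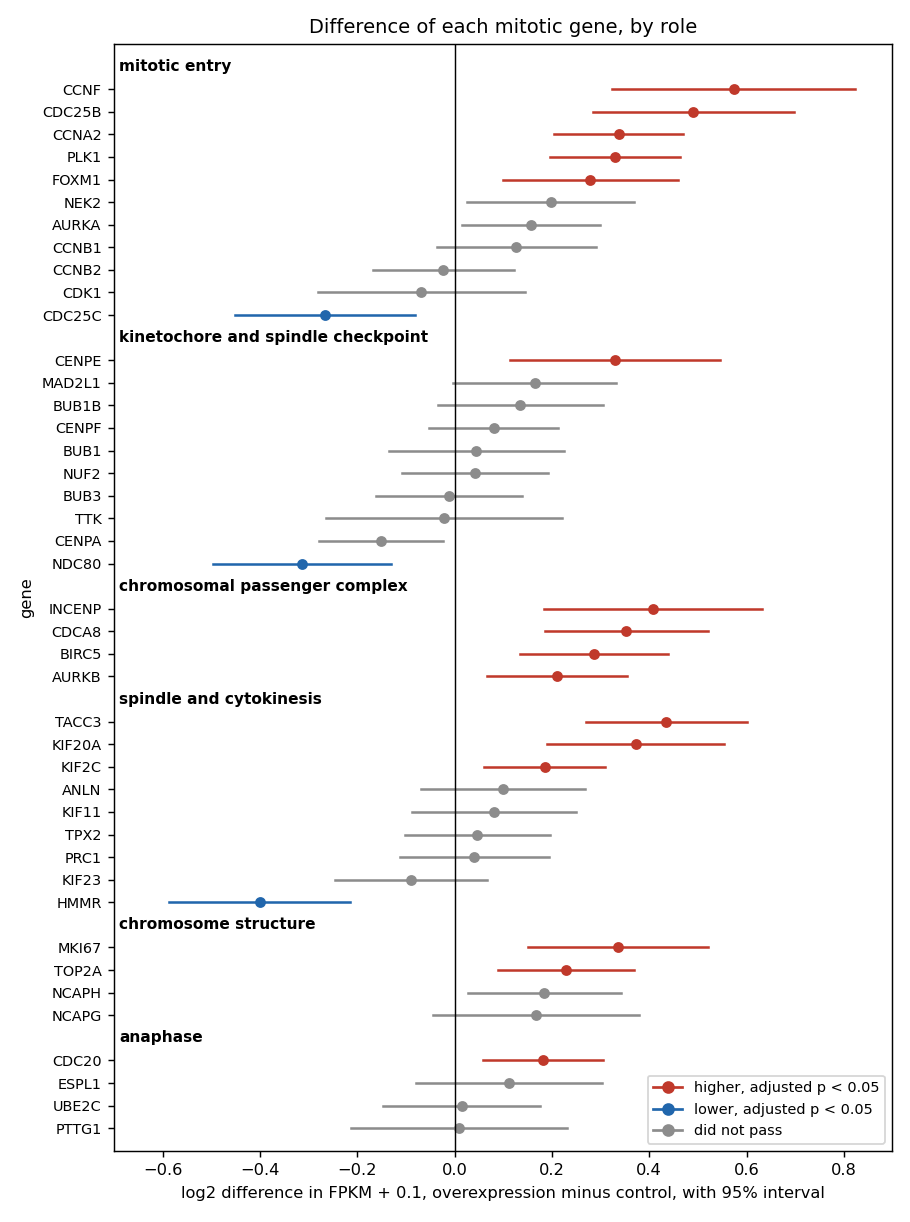
Log2 difference in FPKM + 0.1 of the 42 mitotic genes, overexpression minus control as labelled, grouped by role. Points are limma estimates, bars are 95% intervals, and colour gives the call at an adjusted p under 0.05. All 4 chromosomal passenger genes lie to the right, and the kinetochore and checkpoint genes spread around 0. The GC content of the transcripts also differed between these roles.

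Among the 11 genes of mitotic entry, 5 rose, 1 fell and 5 did not pass, with a median log2 difference of 0.20. For this and each role group below, the shares over all genes tested were 11.3% higher and 13.1% lower. The cyclin-dependent kinase itself, CDK1, was at 153, 136 and 120 FPKM in the libraries labelled control and at 131, 118 and 140 in those labelled overexpression. These values overlapped, and the log2 difference of -0.07 had a 95% interval from -0.28 to 0.14 (limma adjusted p = 0.62). Cyclin B, its main mitotic partner, was likewise not called, with log2 differences of 0.13 for CCNB1 and -0.02 for CCNB2. Cyclin A2 behaved otherwise. CCNA2 was at 82.7, 77.1 and 75.8 FPKM under the control label and at 98.8, 101 and 97.8 FPKM under the overexpression label. The groups were apart, and CCNA2 rose 1.26-fold (log2 difference 0.34, SE 0.060, limma adjusted p = 0.00511).

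The largest rise of the 42 was that of CCNF, which encodes cyclin F, the substrate-binding subunit of an SCF ubiquitin ligase. Its FPKM was 8.06, 8.37 and 10.6 under the control label and 13.1, 14.0 and 12.9 under the overexpression label. The groups were apart, at one of the lowest levels of the 42 genes. It rose 1.49-fold (log2 difference 0.57, SE 0.11, limma adjusted p = 0.00744). The activating phosphatases of CDK1 moved in opposite directions. CDC25B was at 60.9, 60.9 and 73.0 FPKM in the libraries labelled control and at 82.8, 100.02 and 90.7 in those labelled overexpression, a rise of 1.4-fold (limma adjusted p = 0.00645). CDC25C stood at 11.3, 11.4 and 11.3 FPKM under the control label and at 9.34, 9.87 and 8.96 under the overexpression label, a fall of 1.2-fold (limma adjusted p = 0.0424). Neither gene had overlapping groups. The control values of CDC25C were nearly equal, and its call was kept without control library 3 and lost without any of the other 5.

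PLK1, the Polo-like kinase that acts on CDC25, centrosomes and kinetochores, was at 51.3, 53.4 and 55.5 FPKM under the control label and at 67.4, 67.4 and 66.5 under the overexpression label. The rise was 1.26-fold with no overlap (log2 difference 0.33, SE 0.060, limma adjusted p = 0.00555). FOXM1, the transcription factor of late cell-cycle promoters, was at 57.5, 56.9 and 63.3 FPKM and at 68.4, 80.1 and 67.7 FPKM in the same order of labels. Overexpression library 2 was high within its group, and FOXM1 rose 1.21-fold (limma adjusted p = 0.0331). AURKA, the centrosomal Aurora kinase, and NEK2, a centrosomal kinase, had log2 differences of 0.16 and 0.20 that did not pass (limma adjusted p = 0.0986 and 0.0891).

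All 4 genes of the chromosomal passenger complex rose, with a median log2 difference of 0.32. This complex joins the kinase Aurora B to a scaffold and to 2 subunits that place it at centromeres. AURKB, the kinase, was at 91.4, 88.6 and 89.9 FPKM in the libraries labelled control and at 109, 96.6 and 108 in those labelled overexpression. It rose 1.16-fold (limma adjusted p = 0.0401), and overexpression library 2 came nearest to the control values. BIRC5, which encodes survivin, was at 117, 123 and 126 FPKM under the control label and at 155, 137 and 155 under the overexpression label, a rise of 1.22-fold (limma adjusted p = 0.0154). The scaffold gene INCENP was at 19.1, 18.9 and 22.9 FPKM and at 24.2, 29.3 and 27.3 FPKM, a rise of 1.33-fold (limma adjusted p = 0.0180). Here the highest control value and the lowest value under the overexpression label nearly met. CDCA8, which encodes borealin, was at 71.4, 73.9 and 75.9 FPKM under the control label and at 92.0, 104 and 87.0 under the overexpression label. It rose 1.28-fold (log2 difference 0.35, SE 0.075, limma adjusted p = 0.0104) and was the passenger gene whose call did not depend on a single library.

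**Figure D3:**
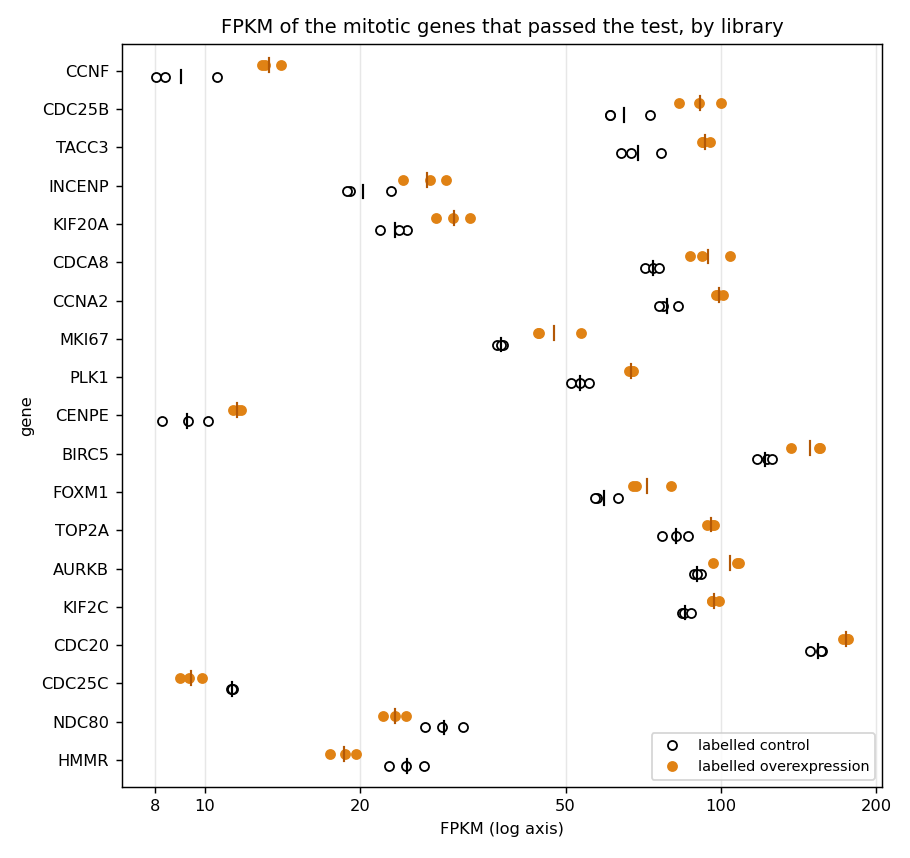
FPKM (log axis) of the 19 mitotic genes that passed the test, 1 point per library, open for libraries labelled control and filled for those labelled overexpression, with vertical ticks at the group means (n = 3 each). The groups do not overlap for any of the 19 genes, and the steps are small against the differences in level between genes.

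Of the 10 kinetochore and checkpoint genes, 1 rose, 1 fell and 8 did not pass, with a median log2 difference of 0.04. These counts were near the shares over all genes tested, 11.3% higher and 13.1% lower. BUB1, a checkpoint kinase, was at 50.4, 47.7 and 41.0 FPKM in the libraries labelled control and at 47.1, 47.7 and 48.0 in those labelled overexpression. The second group lay within the range of the first, and the log2 difference of 0.04 had a 95% interval from -0.14 to 0.23 (limma adjusted p = 0.71). CENPE, a kinesin that carries chromosomes to the spindle equator, was at 10.2, 9.27 and 8.25 FPKM under the control label and at 11.6, 11.4 and 11.8 under the overexpression label, a rise of 1.26-fold (limma adjusted p = 0.0347). NDC80, the microtubule-binding subunit of the outer kinetochore, was at 31.6, 28.8 and 26.7 FPKM and at 22.1, 23.3 and 24.6 FPKM, a fall of 1.24-fold (limma adjusted p = 0.0229). Its partner in the same complex, NUF2, had a log2 difference of 0.04 (limma adjusted p = 0.68), with overlapping groups. The checkpoint genes BUB1B, BUB3, MAD2L1 and TTK had log2 differences of 0.13, -0.01, 0.16 and -0.02. CENPA, the centromeric histone, was lower in every library labelled overexpression and did not pass (log2 difference -0.15, limma adjusted p = 0.0802).

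Of the 9 genes of the spindle and of cytokinesis, 3 rose and 1 fell, with a median log2 difference of 0.08. The shares over all genes tested were 11.3% and 13.1%. KIF11, the motor that pushes spindle poles apart, was at 36.4, 33.2 and 30.8 FPKM under the control label and at 35.9, 34.3 and 35.8 under the overexpression label. Its groups overlapped, with a log2 difference of 0.08 (95% interval -0.09 to 0.25, limma adjusted p = 0.45). TACC3, which stabilizes spindle fibres with clathrin, was at 66.8, 64.0 and 76.5 FPKM in the libraries labelled control and at 91.8, 92.4 and 95.4 in those labelled overexpression. It had the smallest adjusted p of the 42 genes, 0.00422 by limma, with a rise of 1.35-fold. KIF20A, a kinesin of the late spindle and cytokinesis, was at 24.7, 23.8 and 21.8 FPKM and at 30.3, 32.7 and 28.1 FPKM, a rise of 1.29-fold (limma adjusted p = 0.0117). KIF2C, a kinesin that takes microtubules apart at centromeres, was at 83.9, 84.7 and 87.5 FPKM and at 95.9, 99.1 and 96.1 FPKM, a rise of 1.14-fold (limma adjusted p = 0.0386). HMMR moved the other way. This gene encodes a microtubule-binding protein of spindle poles and was at 26.6, 24.6 and 22.7 FPKM under the control label and at 18.7, 17.5 and 19.7 under the overexpression label. It showed the largest fall of the 42, 1.32-fold (log2 difference -0.40, SE 0.083, limma adjusted p = 0.00951). TPX2, PRC1, ANLN and KIF23 had log2 differences from -0.09 for KIF23 to 0.10 for ANLN, none of which passed.

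Chromosome structure was covered by 4 genes, of which TOP2A and MKI67 rose and the condensin subunits NCAPG and NCAPH did not pass. TOP2A, the topoisomerase that untangles sister chromatids, was at 86.3, 81.9 and 76.9 FPKM in the libraries labelled control and at 95.9, 97.0 and 93.9 in those labelled overexpression. It rose 1.17-fold (limma adjusted p = 0.0275). MKI67, which coats mitotic chromosomes and encodes the proliferation antigen Ki-67, was at 37.9, 36.8 and 37.6 FPKM and at 44.3, 53.6 and 44.4 FPKM. Overexpression library 2 stood well above the others, and MKI67 rose 1.26-fold (limma adjusted p = 0.0182). NCAPG and NCAPH had log2 differences of 0.17 and 0.18.

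Of the 4 genes of anaphase, only CDC20 passed, where 11.3% of all genes tested were higher and 13.1% were lower. CDC20, the mitotic activator of the anaphase-promoting complex, was at 148, 157 and 157 FPKM under the control label and at 176, 173 and 175 under the overexpression label. The 1.13-fold rise was the smallest of those called (log2 difference 0.18, SE 0.055, limma adjusted p = 0.0393). UBE2C, the ubiquitin-conjugating enzyme of that complex, had the highest level of the 42 genes, at 311, 294 and 262 FPKM under the control label and 292, 281 and 300.3 under the overexpression label, with a log2 difference of 0.01. PTTG1 (securin) and ESPL1 (separase), the inhibitor and the protease that cuts cohesin, had log2 differences of 0.01 and 0.11. PTTG1 has near-identical copies elsewhere in the genome, so the share of its fragments kept by unique mapping is uncertain. Over all 23 genes that did not pass, differences ranged from -0.15 to 0.20 and 95% bounds from -0.28 to 0.38, so changes of the size seen in the called genes are not excluded for several of them.

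The libraries of a group were not alike in these genes. Each gene was taken relative to its mean under the control label, and the median log2 deviation over the 42 genes was 0.0613, 0.000575 and -0.0651 in control libraries 1, 2 and 3. It was 0.15, 0.16 and 0.13 in the libraries labelled overexpression. Control library 3 held the lowest value for 22 of the 42 genes and the highest for none, and control library 1 held the highest for 10. Overexpression library 2 held the highest value for 17. Summed over the 42 genes, FPKM was 3046, 2960 and 2834 in the libraries labelled control and 3252, 3174 and 3241 in those labelled overexpression. The sums thus did not overlap, and the mitotic genes made up 0.323% to 0.332% of all FPKM under the control label and 0.361% to 0.375% under the overexpression label. Over the 42 genes, the median coefficient of variation within a label was 5.89% for control and 5.17% for overexpression.

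The difference of a gene went with the GC content of its transcript, in the mitotic genes and in the table at large. Transcripts of the 16 genes that rose had a median GC content of 53.5%, those of the 3 that fell 39.6%, and those that did not pass 41.9%, against 48.5% over all genes tested. Of the 13 mitotic genes at or above 50% GC, a split chosen after the values were seen, 11 rose and none fell, and their median log2 difference was 0.29. Of the 29 below it, 5 rose (CCNA2, CENPE, KIF20A, TOP2A and MKI67) and 3 fell, with a median of 0.08. Over all tested genes at or above 50% GC, 18.3% were higher and 8.35% lower, with a median of 0.090. Below 50% GC, 5.45% were higher and 17.1% lower, with a median of -0.089. Across the 42 genes, Spearman's rho of difference and GC content was 0.53 and Pearson's r was 0.55. Across all tested genes rho was 0.34. These correlations are across genes that share the same 6 libraries and are given as a description. In both classes of GC content the median of the mitotic genes lay above that of all genes. The roles differed in GC content too. Chromosomal passenger genes had 51.2% to 58.8% GC, and kinetochore and checkpoint genes had 35.1% to 47.2%. The part of GC content in the contrast between these roles was not tested.

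A smooth trend on GC content, length and expression was removed from the 98.8% of tested genes with known GC content and length. In this fit 29 of the 42 genes (69.0%) were higher and 1 (2.38%) was lower at a limma adjusted p under 0.05, against 15.4% and 14.7% of all genes tested. All 16 genes that had risen were still called. CCNB1, AURKA, NEK2, BUB1B, MAD2L1, NUF2, CENPF, KIF11, ANLN, NCAPG, NCAPH, UBE2C and PTTG1 were now called higher as well. CDC25C and NDC80 were no longer called, and HMMR remained lower. The median log2 difference of the 42 genes was 0.20 in this fit. Chromosomal passenger genes then ranged from 0.20 for AURKB to 0.34 for CDCA8. Kinetochore and checkpoint genes ranged from -0.16 for NDC80 to 0.44 for CENPE. GC content, length and expression were removed together, so their separate parts were not tested.

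**Figure D4:**
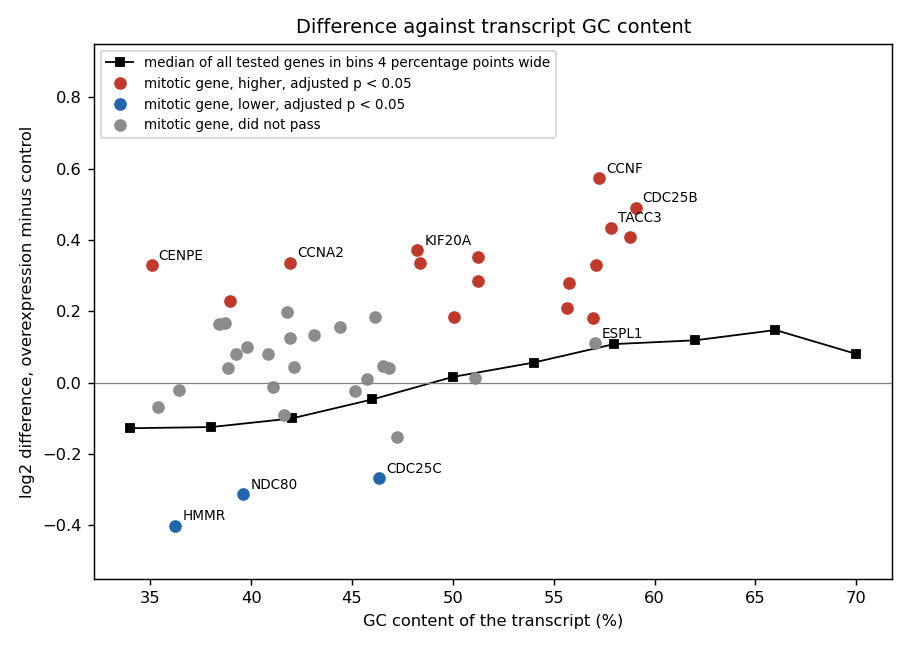
Log2 difference, overexpression minus control as labelled, of the 42 mitotic genes (points, coloured by call) against the GC content of the transcript (%), with the median of all tested genes in bins 4 percentage points wide (black squares). The median of all genes climbs from -0.13 at the lowest bin to 0.15 at 66%, and most mitotic genes lie above it.

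Some differences were shared with genes nearby on the chromosome, and others were not. For each gene, the median difference of the other tested genes in a 10 Mb window centred on it was taken as the shift of its neighbours. BIRC5 (chr17:78214253-78225635) lay among 149 tested neighbours whose median log2 difference was 0.26, close to its own 0.29. Its difference was 0.03 once that shift was subtracted. TOP2A (chr17:40388525-40417896) had a difference of 0.23 among neighbours at 0.18, and AURKB (chr17:8204731-8210575) one of 0.21 among neighbours at 0.16. TACC3 and CDC25B differed by 0.44 and 0.49 among neighbours at 0.23 and 0.19. NDC80 (chr18:2571557-2616635), which fell, lay among 17 neighbours at -0.21. For these genes part of the difference was thus shared with genes nearby, nearly all of it in BIRC5. By contrast, CCNF, PLK1, CDCA8 and KIF20A lay among neighbours at 0.07, 0.01, -0.002 and 0.02. NEK2 and ANLN differed by 0.20 and 0.10 among neighbours at -0.10 and -0.18, and CDC25C by -0.27 among neighbours at 0.04. An association of difference with position over all tested genes was not tested. The neighbour shift and the GC trend were removed in separate fits, so their overlap was not tested.

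The neighbour shift was then subtracted from every gene with at least 10 tested neighbours, and other genes were left as they were. In this fit 9 of the 42 genes (21.4%) were higher and 2 (4.76%) were lower, against 7.33% and 8.65% of all genes tested. Still called higher were CCNA2, CCNF, PLK1, CDCA8, KIF20A, KIF2C and CDC20, joined by NEK2 and ANLN, and still lower were CDC25C and HMMR. CDC25B, FOXM1, CENPE, AURKB, BIRC5, INCENP, TACC3, TOP2A and MKI67 lost the call, as did NDC80. Some of these kept most of their difference, such as CENPE at 0.29 (limma adjusted p = 0.0712) and CDC25B at 0.30 (limma adjusted p = 0.0540), and BIRC5, TOP2A and AURKB were left with 0.03, 0.05 and 0.05. The median log2 difference of the 42 genes was 0.14. Of the passenger complex, only CDCA8 remained called in this fit.

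**Figure D5:**
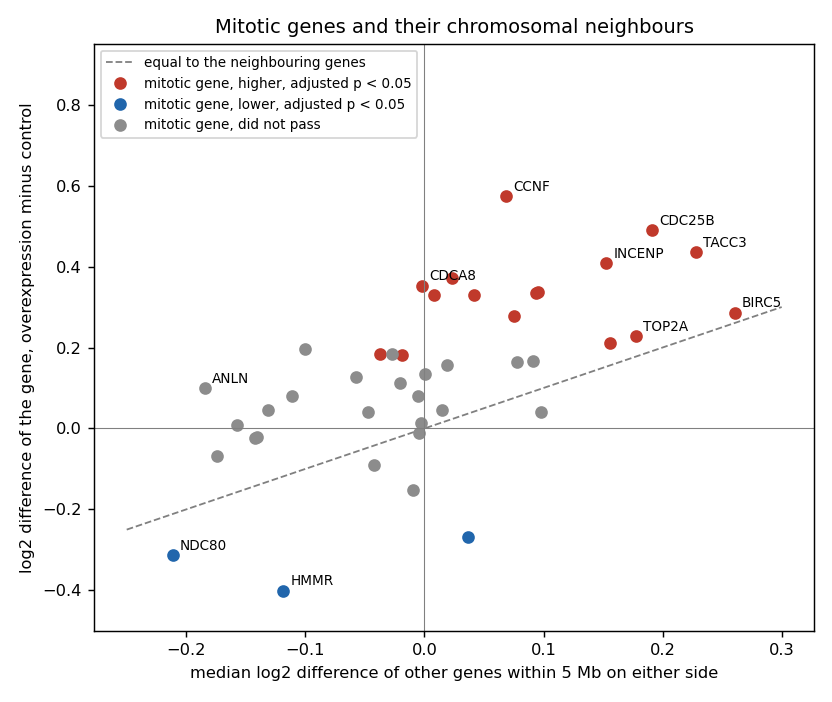
Log2 difference of each of the 42 mitotic genes (overexpression minus control as labelled) against the median log2 difference of the other tested genes in a 10 Mb window around it. The dashed line marks equality. BIRC5 and TOP2A lie close to the line, and CCNF, CDCA8 and HMMR lie far from it.

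Genes of the same machinery outside the 42 are given by list. Each count is to be read beside the 11.3% higher and 13.1% lower of all genes tested. Of 11 regulators in MuvB, DREAM and the B-MYB complex, 2 rose, 1 fell and the median log2 difference was -0.01. E2F4, a repressor subunit of DREAM, rose (log2 difference 0.31, limma adjusted p = 0.00867), as did MYBL2, while LIN52, a MuvB core subunit, fell (log2 difference -0.45, limma adjusted p = 0.0104). Of 17 subunits and regulators of the anaphase-promoting complex none rose and 1 fell, the small subunit gene ANAPC13 (log2 difference -0.54, limma adjusted p = 0.00101), with a median of -0.01. Of 17 condensin and cohesin genes 3 rose and 1 fell, with a median of 0.02. The condensin subunit NCAPD2 rose by 0.40 and CDCA5 (sororin, which protects cohesion) by 0.29 on the log2 scale (limma adjusted p = 0.00345 and 0.0237).

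Of 29 other kinetochore and centromere genes, 1 rose and 4 fell, with a median log2 difference of -0.06. Over all genes tested 11.3% were higher and 13.1% were lower. SKA3 and ZWILCH, of the outer kinetochore, fell by 0.40 each (limma adjusted p = 0.0142 and 0.0130). Of 38 other mitotic kinases, motors and spindle genes, 11 rose and none fell, with a median of 0.09. KIF18B, a kinesin of microtubule ends, was at 19.4, 20.1 and 23.3 FPKM under the control label and at 34.3, 33.3 and 33.1 under the overexpression label, and SPAG5 (astrin) rose by 0.48 on the log2 scale. The log2 difference of KIF18B was 0.68 (limma adjusted p = 8.47e-04), larger than that of any of the 42 genes, and that of SPAG5 had a limma adjusted p of 0.00209. The difference between the kinetochore list and the list of motors and spindle genes was not tested.

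Of 8 CDK inhibitor genes, 3 rose and 1 fell, with a median log2 difference of -0.13. CDKN2C, an inhibitor of the cyclin D kinases, rose by 0.46 (limma adjusted p = 0.00327), and CDKN1C fell by 0.47 (limma adjusted p = 0.0130). Of 35 genes of DNA replication and the G1/S step, 8 rose and 2 fell, with a median of 0.05. E2F8, a repressor of the E2F family, rose by 0.70 on the log2 scale at a low level of 2.37 ± 0.27 against 3.90 ± 0.28 FPKM (SD, n = 3 each, limma adjusted p = 0.00928). PRIM1, the catalytic subunit of primase, fell by 0.43 (limma adjusted p = 0.00806). The background shares of 11.3% higher and 13.1% lower apply to each of these lists.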

How the data were processed

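RNA sequencing of 6 HK-2 libraries was compared, 3 labelled control and 3 labelled HNRNPF overexpression, grouped and numbered by their titles. The authors made stranded, paired-end poly(A) libraries, trimmed reads with FASTX-Toolkit, aligned them to GRCh38 with HISAT2 and computed the deposited FPKM values, 1 column per library, from uniquely mapped reads. Not given in the sources used here are the HISAT2 version, the annotation, the counting tool and whether counting used strand. The submitters' processing notes also name DESeq2, which needs counts and was not used here. FPKM is corrected for length and library size, not for GC content or composition. Many trial scales were run per library to turn low values of single-exon genes into whole fragments. At the best scale, 44.8% to 49.6% of these values lay near whole fragments (within 0.15). Chance gives 30.0% at a single fixed scale, and the chance level for the best of many was not computed. Fragment counts were thus not recovered and no counting interval is given. The study lists read totals by medium, which were not used here because the medium of each library is not in its labels.

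Log2(FPKM + 0.1) was tested with limma 3.58.1 (eBayes with trend, two-sided) in R 4.3.3 over the 12461 genes that averaged 1 FPKM or more, with Benjamini-Hochberg adjustment. Fold changes are on this scale and understate changes of low genes. The limma step was tested on simulated normal values, which says nothing of its error rate on these libraries. The study calls the libraries of a group biological replicates, but no label ties them to separate cultures, so p-values here reflect only library-to-library spread, which may be technical. The 42 genes, the gene lists and the alternatives were chosen with earlier results of these data known. Values per library are given for called genes and for the lead gene of each role group, called or not (CDK1, BUB1, AURKB, KIF11, TOP2A and CDC20), and of each related list at most 2 called genes with the largest difference are named. MYBL2, and UBE2C for its values per library, were added after their values were seen. Positions, GC content and length came from GRCh38 annotation, the smooth trend from mgcv 1.9.3 and promoters from RefSeq (GRCh38.p14). Of the gene symbols, 99.6% matched RefSeq. Plots used matplotlib 3.10.9 and Python 3.11.15.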

Additional observations from a re-analysis of the deposited data

How the results depend on the processing

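The 16 higher and 3 lower mitotic genes became 29 and 1 with the trend on GC content, length and expression removed, and 9 and 2 with the neighbour shift removed. They were 7 to 15 and 1 to 3 without 1 library in turn. With the replicate number as a replicate block they were 13 and 2, no filter gave 13 and 2, and limma without trend gave 11 and 3. Scaling by TPM, by quantiles or by median of ratios, a mean of 5 FPKM as the filter, pseudocounts of 0.01 and 1, and robust estimation gave 16 higher genes and 2 or 3 lower. For the block, filter, trend, scaling, pseudocount and robust settings the share of all tested genes called is not given. Those counts therefore do not tell a change in the mitotic genes from a change in all genes. Same-numbered libraries deviated from their group means with correlations of 0.091, -0.086 and 0.006. The numbers are therefore not taken as pairs, and 1 of the 3 libraries labelled overexpression correlated best with its own number. No scaling moved the median of all genes by more than 0.036 (log2). No called gene changed sign under any alternative run. Signs turned only among genes that did not pass. With the trend on GC content, length and expression removed the log2 difference was 0.109 for CDK1, 0.0929 for CCNB2, 0.0716 for BUB3, 0.122 for TTK, 0.00364 for KIF23 and -0.0265 for ESPL1. With the neighbour shift removed it was 0.105 for CDK1, 0.119 for CCNB2, 0.119 for TTK and -0.0575 for PRC1. TPM scaling gave 0.0121 for CCNB2, 0.0234 for BUB3 and 0.0145 for TTK, and quantile scaling gave 0.0212 for BUB3. Without 1 library in turn it ranged from -0.156 to 0.0199 for CDK1, -0.0624 to 0.00789 for CCNB2, -0.0416 to 0.107 for BUB1, -0.0551 to 0.0321 for BUB3, -0.118 to 0.0972 for TTK, -0.00607 to 0.0833 for NUF2, -0.0116 to 0.0795 for TPX2, -0.00303 to 0.0760 for PRC1, -0.0549 to 0.0693 for UBE2C and -0.0837 to 0.1002 for PTTG1. The cause of these changes was not tested. Leaving out a library leaves 2 against 3. With 3 libraries a group, a difference near 0.2 passed in some genes (CDC20 and KIF2C) and not in others (NEK2 and NCAPH).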
